A study of Mus musculus with 4 samples.

Results

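The immediate early genes described here are Fos, Fosb, Jun, Junb, Egr1, Egr2, Atf3, Ier2, Dusp1 and Nr4a1, measured in mammary gland RNA of mice. They were chosen by gene symbol, with older symbols matched by gene ID, and all 10 were on the array, read by 12 of its 22690 probe sets. They are 10 of 12394 genes that had a probe set of their own. The 4 groups were female nulliparous MMTV-PPARd mice given GW501516 in chow for 1 week, MMTV-PPARd mice on standard chow, wild-type littermates given GW501516 for 1 week, and wild-type littermates on standard chow. All were on the FVB background. In MMTV-PPARd mice a promoter taken from mouse mammary tumour virus, active mainly in mammary epithelium, drives the nuclear receptor PPARδ, and GW501516 is a synthetic PPARδ agonist. The content of GW501516 in chow was 0.005% in the source names and 0.001% in a treatment tag, and the values do not settle which is right. Each group was 1 array hybridised with RNA pooled from 5 mice, so no difference below has a replicate check, and no test, standard error or p-value is given.

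Immediate early genes are transcribed within minutes of a stimulus, without new protein synthesis, and their mRNAs are short-lived. Growth factors, stress and cyclic AMP act on them through kinases that phosphorylate transcription factors already bound near their start sites, among them serum response factor with its ternary complex partners at CArG boxes and CREB at cyclic AMP response elements (CRE). FOS and JUN family proteins pair to form AP-1, the EGR proteins are zinc finger transcription factors, and NR4A1 is an orphan nuclear receptor, while DUSP1 is a phosphatase that switches off the MAP kinases that induce it. In mammary tissue these genes respond to epidermal growth factor and to involution, and also to tissue handling.

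Of the 8 members for which RefSeq promoter windows were at hand (mouse build GRCm38.p6), 4 are printed for the 250 bases before the start site. Fos, Nr4a1 and Dusp1 are shown because they differed most between arrays with Egr1, and Egr2 because it ran differently from them. Capitals mark matches, on either strand, to the motifs searched, and each window reads 5′ to 3′ on the gene's strand.
Fos, chr12:85473640-85473889, plus strand: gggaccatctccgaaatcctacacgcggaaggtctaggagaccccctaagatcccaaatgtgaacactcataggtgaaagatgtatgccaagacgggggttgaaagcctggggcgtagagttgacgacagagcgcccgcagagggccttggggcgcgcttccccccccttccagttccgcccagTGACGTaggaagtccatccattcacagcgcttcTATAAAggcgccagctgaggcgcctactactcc
Nr4a1, chr15:101266596-101266845, plus strand: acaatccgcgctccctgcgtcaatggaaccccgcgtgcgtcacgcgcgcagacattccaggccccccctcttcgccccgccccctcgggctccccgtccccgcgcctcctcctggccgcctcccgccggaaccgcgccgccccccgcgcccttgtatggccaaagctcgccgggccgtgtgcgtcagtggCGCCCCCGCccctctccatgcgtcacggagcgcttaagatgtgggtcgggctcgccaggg
Dusp1, chr17:26508473-26508722, minus strand: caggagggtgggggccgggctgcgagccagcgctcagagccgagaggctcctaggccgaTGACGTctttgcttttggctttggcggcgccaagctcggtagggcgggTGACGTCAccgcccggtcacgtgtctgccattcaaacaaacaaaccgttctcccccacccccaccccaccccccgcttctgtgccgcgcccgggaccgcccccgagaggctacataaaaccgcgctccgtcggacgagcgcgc
Egr2, chr10:67537619-67537868, plus strand: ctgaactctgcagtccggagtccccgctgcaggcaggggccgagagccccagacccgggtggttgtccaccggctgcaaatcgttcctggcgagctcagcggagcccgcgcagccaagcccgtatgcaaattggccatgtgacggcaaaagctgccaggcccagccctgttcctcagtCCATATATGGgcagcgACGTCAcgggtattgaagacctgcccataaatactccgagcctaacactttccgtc

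The full CRE, TGACGTCA, was found in the Dusp1 window only, at bases -143 to -136, among the 8 members, and in 1.55% of all 32851 windows of that length. Its 6-letter core TGACGT, which overlaps the full CRE and was added after the first search, was in the windows of Fos, Dusp1, Egr2 and Atf3 (4 of 8 members) and in 6.47% of all windows. In Fos it lies at bases -66 to -61, upstream of a TATAAA at -33 to -28, a motif that 12.4% of windows hold. The CArG box was found in Egr2, at bases -72 to -63 of the window shown, and in 1.47% of all windows. A match to the EGR site GCGNGGGCG stands in Nr4a1, on the opposite strand at bases -60 to -52, and in Fosb, against 4.70% of all windows. The AP-1 site TGANTCA was in none of the 8 windows and in 6.75% of all windows. Members were counted by gene, with a match in any window of the gene, while the shares are of single windows. Egr2 had several windows, some of them overlapping. These are matches of letters in short windows, and binding was not measured.

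The array of MMTV-PPARd mice on chow stood apart from the other 3. Its Gapdh intensity was 2986 on the middle probe set, against 7171 to 10826 on the others, and 4001 on the 3′ set, against 6753 to 9805. The middle set of the spiked control BioB read 32.4, against 438.1 to 519.0. The other spiked controls checked were lower by less. BioC read 746.3 (1025 to 1246 on the others), BioD 2472 (3086 to 3773) and Cre 7135 (9717 to 11058). The ratio of 3′ over 5′ probe sets, which rises as RNA degrades, was 1.12 there for Gapdh (0.774 to 0.900 on the others) and 1.51 for Actb (1.29 to 1.38). The members' comparisons with this array are therefore set beside those without it. Ppard had an intensity of 4224 and 1943 in MMTV-PPARd mice on GW501516 and on chow, and of 1.5 and 2.1 in wild-type mice. The tissue carried mammary epithelial and adipose markers on all arrays, with Krt8 between 5613 and 8266 and Adipoq between 9984 and 15057. Values are the deposited intensities, those under the floor of 20.5 have only an upper bound, and genes were counted if at least 1 array reached 139, which kept 7836 genes and 9 of the 10 members. Fosb did not reach 139, and Junb passed narrowly, through its intensity of 144.5 on a single array.

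Fos, the founding FOS family subunit of AP-1, had intensities of 1394 in MMTV-PPARd mice on GW501516, 2802 in MMTV-PPARd mice on chow, 1486 in wild-type mice on GW501516 and 394.0 in wild-type mice on chow. The MMTV-PPARd chow array was the highest and the wild-type chow array the lowest, while the GW501516 arrays lay close together between them. The span of 7.11-fold was matched or passed by 2.97% of the genes counted, whose median span was 1.45-fold. Fosb, which encodes another partner of JUN proteins, read 21.4, 14.9, 44.4 and 8.1 in the same order. It was near or below the floor on 3 arrays and highest on the array of wild-type mice on GW501516.

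Jun, the main partner of FOS, was read by 2 probe sets. The brighter one gave 1267 in MMTV-PPARd mice on GW501516, 1485 in MMTV-PPARd mice on chow, 954.4 in wild-type mice on GW501516 and 1010 in wild-type mice on chow. The other gave 509.3, 501.8, 427.3 and 335.5. On both, MMTV-PPARd arrays were above wild-type arrays, within a span of 1.56-fold and 1.52-fold. Junb, a JUN family member that often opposes JUN, read 96.7, 144.5, 102.5 and 135.6 in the same order, so that both chow arrays were above both GW501516 arrays, by at most 1.49-fold. Atf3, a stress-induced factor of the ATF family, read 144.6, 189.5, 152.5 and 113.0. Its order over the arrays was that of Fos, with a smaller span of 1.68-fold.

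Egr1, the zinc finger factor that defines the EGR family, had intensities of 1639 in MMTV-PPARd mice on GW501516, 4410 in MMTV-PPARd mice on chow, 1628 in wild-type mice on GW501516 and 1217 in wild-type mice on chow. The MMTV-PPARd chow array was 2.69-fold above the next highest, and the other 3 arrays lay close together. Egr2, known for its role in myelination and in T cell tolerance, was read by 2 probe sets. The brighter gave 696.7 in MMTV-PPARd mice on GW501516, 877.2 in MMTV-PPARd mice on chow, 806.0 in wild-type mice on GW501516 and 1237 in wild-type mice on chow, and the other gave 579.5, 809.6, 915.7 and 940.2. Both put the wild-type chow array highest and the MMTV-PPARd GW501516 array lowest, and they ordered the arrays between these differently.

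Dusp1 had intensities of 1142 in MMTV-PPARd mice on GW501516, 2355 in MMTV-PPARd mice on chow, 1265 in wild-type mice on GW501516 and 802.3 in wild-type mice on chow. Nr4a1 read 410.8, 760.6, 513.2 and 177.7 in the same order. For both, as for Fos, the order from high to low was MMTV-PPARd on chow, wild type on GW501516, MMTV-PPARd on GW501516 and wild type on chow, with the GW501516 arrays next to each other. Ier2, a small nuclear protein induced by serum, read 598.7, 1125, 626.2 and 899.9, with both chow arrays above both GW501516 arrays, as in Junb. With 1 array per group there is no spread against which neighbours in these orders could be told apart.

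**Figure D1:**
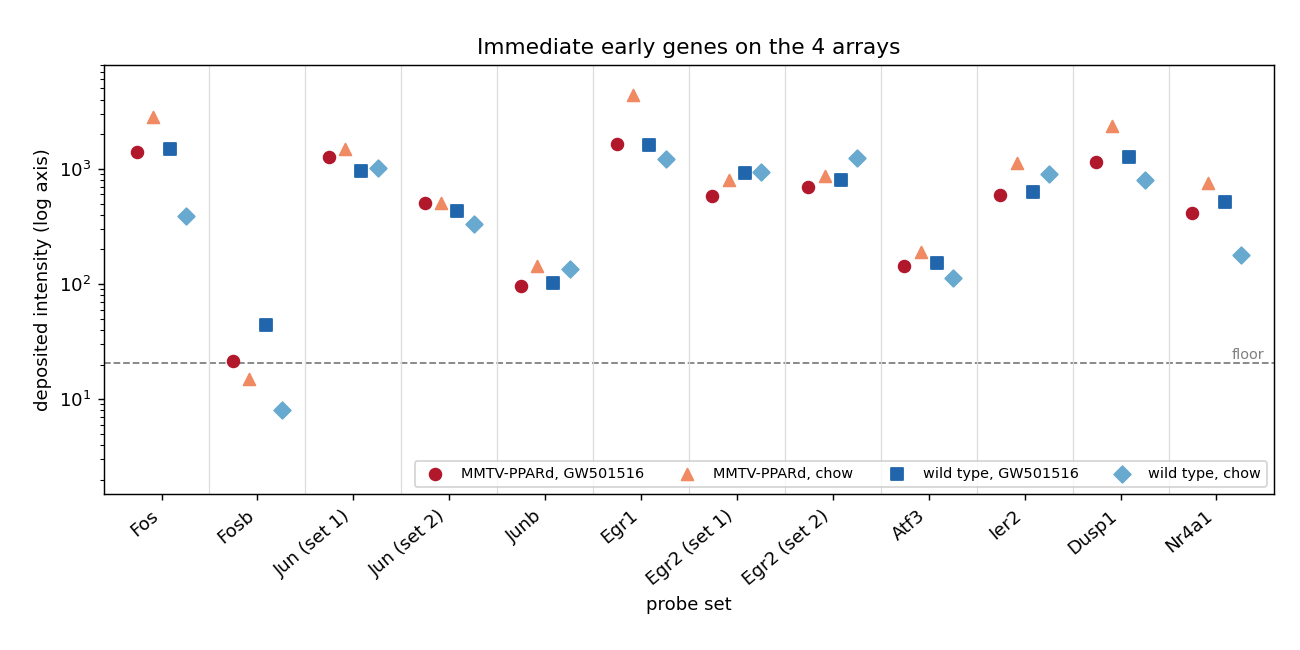
Deposited intensity (log axis) of the 12 probe sets of the 10 immediate early genes, with 1 point per array and a dashed line at the floor of 20.5. The MMTV-PPARd chow array is highest for Fos (2802), Egr1 (4410), Dusp1 (2355) and Nr4a1 (760.6), while for Egr2 the wild-type chow array is highest.

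The brighter probe sets of 8 of the 9 members that passed the filter were highest on the MMTV-PPARd chow array, as were 33.6% of the 7836 genes counted. For Junb, 1 of the 8, this was fixed by the filter, which it passed through that array alone. Egr2 was highest in wild-type mice on chow, as were 25.4% of the genes. Jun was the exception between probe sets, since its dimmer set was 1.01-fold higher in MMTV-PPARd mice on GW501516 than on chow. Because the tissue was measured whole, more cells that express a gene and more RNA per cell cannot be told apart in these values or in any below.

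On chow, MMTV-PPARd mice had higher intensities than wild-type mice for Fos (7.11-fold), Nr4a1 (4.28-fold), Egr1 (3.63-fold) and Dusp1 (2.94-fold). These 4 of 9 members were at least 2-fold higher, against 5.46% of all genes, and 0 were at least 2-fold lower, against 3.71%. The median log2 difference of the 9 members was 0.75 and that of all genes 0.020. Only 40 genes had a larger difference in that direction than Fos, and 99 a larger one than Nr4a1. Atf3 (1.68-fold), Jun (1.47-fold, and 501.8 against 335.5 on the other probe set), Ier2 (1.25-fold) and Junb (1.07-fold) were higher by less than 2-fold. The direction of Junb was fixed by the filter here too. Egr2 was lower, by 1.41-fold on the brighter probe set and 1.16-fold on the other. Fosb was under the floor in both groups.

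Other markers moved in the same comparison. Luminal epithelial markers had 4 of 7 genes at least 2-fold higher in MMTV-PPARd mice, against 5.46% of all genes, with Ehf at 1411 against 240.1. The 8 luminal markers summed to 24468 against 19483. The luminal keratins Krt8 (5933 against 6057) and Krt19 (3595 against 4450) were lower in MMTV-PPARd mice. The 5 genes of the milk protein list summed to 39105 against 8617, with 4 of them past 2-fold upwards and Lalba lower (159.0 against 624.5). Basal epithelial markers summed to 13150 against 8645. Of 10 skeletal muscle markers 8 were at least 2-fold higher (5.46% of all genes), with sums of 25233 against 11149. All 7 T cell markers were at least 2-fold lower (3.71% of all genes), with sums of 1476 against 4825. Of these, Cd3e, Cd5, Cd8a and Cd8b1 passed the filter through the wild-type chow array alone, which fixed their direction. The luminal marker Muc1 and the milk protein gene Wap passed through the MMTV-PPARd arrays alone, which fixed theirs. The sum of 6 fibroblast markers was 39488 against 56853, of 5 white adipocyte markers 29153 against 40870 and of 6 macrophage markers 11612 against 14872. That of 6 endothelial markers was 2803 against 2768. The highest intensity of any probe set on the MMTV-PPARd chow array was 14309, against 19396 to 21520 on the others. What this array limit adds to the lower sums was not tested. The part of these tissues in the difference of Fos, Egr1, Dusp1 and Nr4a1 was not tested.

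On GW501516, where the MMTV-PPARd chow array is not used, the genotypes were close on the brighter probe set of every member that passed. On these sets the largest difference was that of Jun, 1.33-fold higher in MMTV-PPARd mice (1.19-fold on its other probe set). Nr4a1 was 1.25-fold lower in MMTV-PPARd mice, Egr2 1.16-fold, Dusp1 1.11-fold and Fos 1.07-fold, and Egr1 was 1.01-fold higher, a sign that turned with quantile scaling. At least 2-fold higher were 0 of 9 members, against 2.82% of all genes, and at least 2-fold lower were 0, against 1.19%. The median of the members was -0.084 and that of all genes 0.0016. On its dimmer probe set Egr2 was 1.58-fold lower in MMTV-PPARd mice, a larger difference than that of Jun. Summed muscle markers were 90465 in MMTV-PPARd mice and 93968 in wild-type mice, and summed T cell markers 148.0 and 161.3. Other markers differed between the same arrays: milk protein genes summed to 79887 in MMTV-PPARd mice and 33157 in wild-type mice, salivary markers to 2832 and 9055, and the basal keratin Krt14 read 2818 and 334.9. Fosb read 21.4, near the floor, in MMTV-PPARd mice and 44.4 in wild-type mice.

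**Figure D2:**
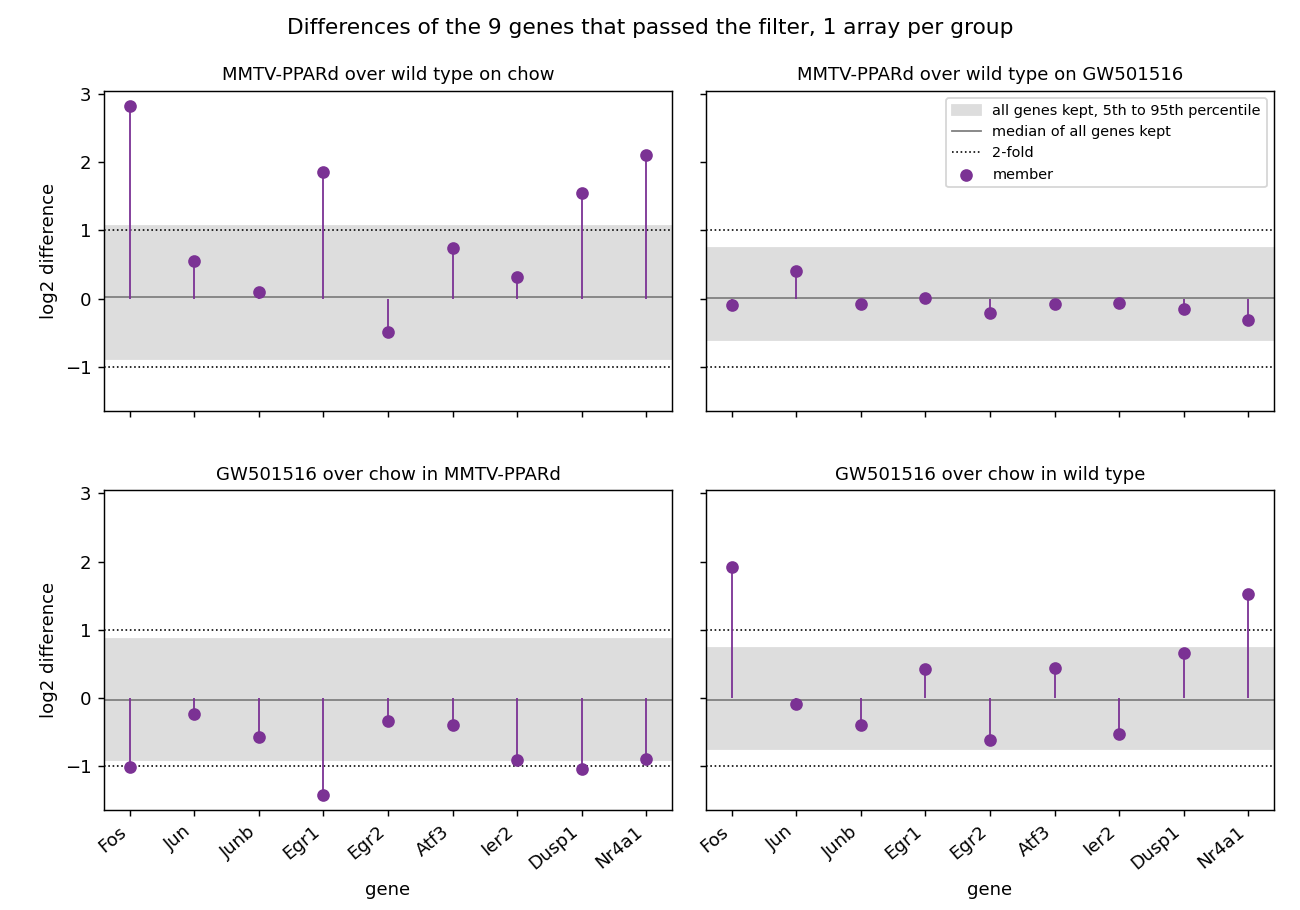
Log2 differences (vertical axis) of the 9 immediate early genes that passed the filter, in 4 comparisons of 1 array against 1 array. The grey band spans the 5th to 95th percentile of 7836 genes and dotted lines mark 2-fold. Fos, Egr1, Dusp1 and Nr4a1 lie above 2-fold for genotype on chow, Fos and Nr4a1 for GW501516 in wild type, and no member does so for genotype on GW501516.

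In MMTV-PPARd mice, GW501516 went with lower intensities of all 9 members on their brighter probe sets, a direction that 53.1% of all genes had. The direction of Junb was fixed by the filter, which it passed through the MMTV-PPARd chow array alone. Egr1 was 2.69-fold lower on GW501516 than on chow, Dusp1 2.06-fold and Fos 2.01-fold, and these 3 of 9 were at least 2-fold lower, against 4.07% of all genes. None of the 9 was at least 2-fold higher, against 3.99% of all genes. Ier2 (1.88-fold) and Nr4a1 (1.85-fold) were just inside the threshold, and Dusp1 and Fos just past it. Shifting the arrays to one median left Egr1 alone past it. Junb was 1.49-fold, Atf3 1.31-fold, Egr2 1.26-fold and Jun 1.17-fold lower. The members' median was -0.89 and that of all genes -0.034. Muscle markers summed to 90465 on GW501516 and 25233 on chow, T cell markers to 148.0 and 1476, and B cell markers to 122.9 and 1448. Milk protein genes summed to 79887 on GW501516 and 39105 on chow. The part of these markers in the members' differences was not tested. This comparison and that of genotype on chow share the MMTV-PPARd chow array, with opposite sign. A comparison without that array sets MMTV-PPARd mice on GW501516 against wild-type mice on chow, and so changes genotype and agonist together. There Fos was 3.54-fold and Nr4a1 2.31-fold higher in MMTV-PPARd mice on GW501516, 2 of 9 members against 5.5% of all genes. Egr1 (1.35-fold) and Dusp1 (1.42-fold) were then higher by less than 2-fold, and 0 members were at least 2-fold lower, against 4.21%.

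In wild-type mice, GW501516 went with higher Fos (3.77-fold) and Nr4a1 (2.89-fold). These 2 of 9 members were at least 2-fold higher, against 3.18% of all genes, and 0 were at least 2-fold lower, against 3.25%. Fosb, which had not passed the filter, was at least 2.17-fold higher on GW501516, a bound set by the floor: its log2 difference was 0 with the floor at the 40th percentile and 2.45 with none. Dusp1 (1.58-fold), Atf3 (1.35-fold) and Egr1 (1.34-fold) were higher by less. Egr2 was 1.53-fold lower on GW501516, by 1.03-fold on its other probe set, and Ier2 was 1.44-fold and Junb 1.32-fold lower. Jun was 1.06-fold lower on one probe set and 1.27-fold higher on the other. The median was 0.42 for the members and -0.037 for all genes.

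The same 2 arrays differed in their content of other tissues. The summed intensity of 10 skeletal muscle markers was 93968 in wild-type mice on GW501516 and 11149 on chow. All 10 were at least 2-fold higher, against 3.18% of all genes. The 7 T cell markers summed to 161.3 on GW501516 and 4825 on chow, with 3 of them under the floor on GW501516 and none on chow, and the 5 B cell markers to 171.1 and 2814. Of 4 salivary markers 3 were above the floor on the wild-type GW501516 array only, among them Bpifa2 at 3719, against 6.3 on chow. The part of these tissues in the difference of Fos and Nr4a1 was not tested.

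The difference between the GW501516 effects of MMTV-PPARd and wild-type mice uses all 4 arrays. It was -2.92 on the log2 scale for Fos, -2.42 for Nr4a1, -1.85 for Egr1 and -1.70 for Dusp1. These 4 of 9 members had an effect at least 2-fold lower in MMTV-PPARd mice, against 5.25% of all genes, and 0 had one at least 2-fold higher, against 4.43%. The median was -0.82 for the members and 0.0056 for all genes. For each of these 4 genes the agonist went with lower intensity in MMTV-PPARd mice and with higher intensity in wild-type mice, a pattern of opposite signs at that size that 6.42% of all genes had. Egr2 was the only member above 0, at 0.29, and stood at -0.079 with the mean over its probe sets. The value cannot be had without the MMTV-PPARd chow array.

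Genes related to the members by pathway were taken from 5 lists. The 36 measured immediate early genes outside the members gave 27 that passed the filter, of which 15 were highest on the MMTV-PPARd chow array, as were 33.6% of all genes. On chow, 2 of 27 were at least 2-fold higher in MMTV-PPARd mice (5.46% of all genes) and 1 at least 2-fold lower (3.71%), both close to the shares over all genes, with a median of 0.25. Ccn2, a matricellular growth factor target, read 796.0 in MMTV-PPARd mice on GW501516, 2041 in MMTV-PPARd mice on chow, 1249 in wild-type mice on GW501516 and 582.7 in wild-type mice on chow. Its order over the arrays was that of Fos with the GW501516 arrays further apart. Myc, the growth-promoting transcription factor, read 521.9, 1540, 431.9 and 481.9, so that the MMTV-PPARd chow array alone was high, 2.95-fold above the next.

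Dusp2, a MAP kinase phosphatase of activated lymphocytes, ran with the T cell markers instead, at 32.3, 141.0, 43.0 and 284.9. It was 6.63-fold lower on GW501516 in wild-type mice and 4.37-fold lower in MMTV-PPARd mice. Dusp2 passed the filter on the chow arrays alone, which fixed these directions, also in the counts below. Cebpd, a factor induced at involution, was highest in wild-type mice on GW501516 (2181) and lowest in MMTV-PPARd mice on GW501516 (785.8). Its dimmer probe set was also highest in wild-type mice on GW501516 (84.7) but lowest in MMTV-PPARd mice on chow (30.6), with 56.6 in MMTV-PPARd mice on GW501516. With GW501516 in MMTV-PPARd mice, 4 of the 27 genes were at least 2-fold lower (4.07% of all genes) and 0 higher (3.99%), with a median of -0.48. In wild-type mice 2 were lower (3.25% of all genes) and 1 higher (3.18%), with a median of -0.11. For genotype on GW501516, 1 was higher (2.82% of all genes) and 2 lower (1.19%), with a median of -0.013.

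**Figure D3:**
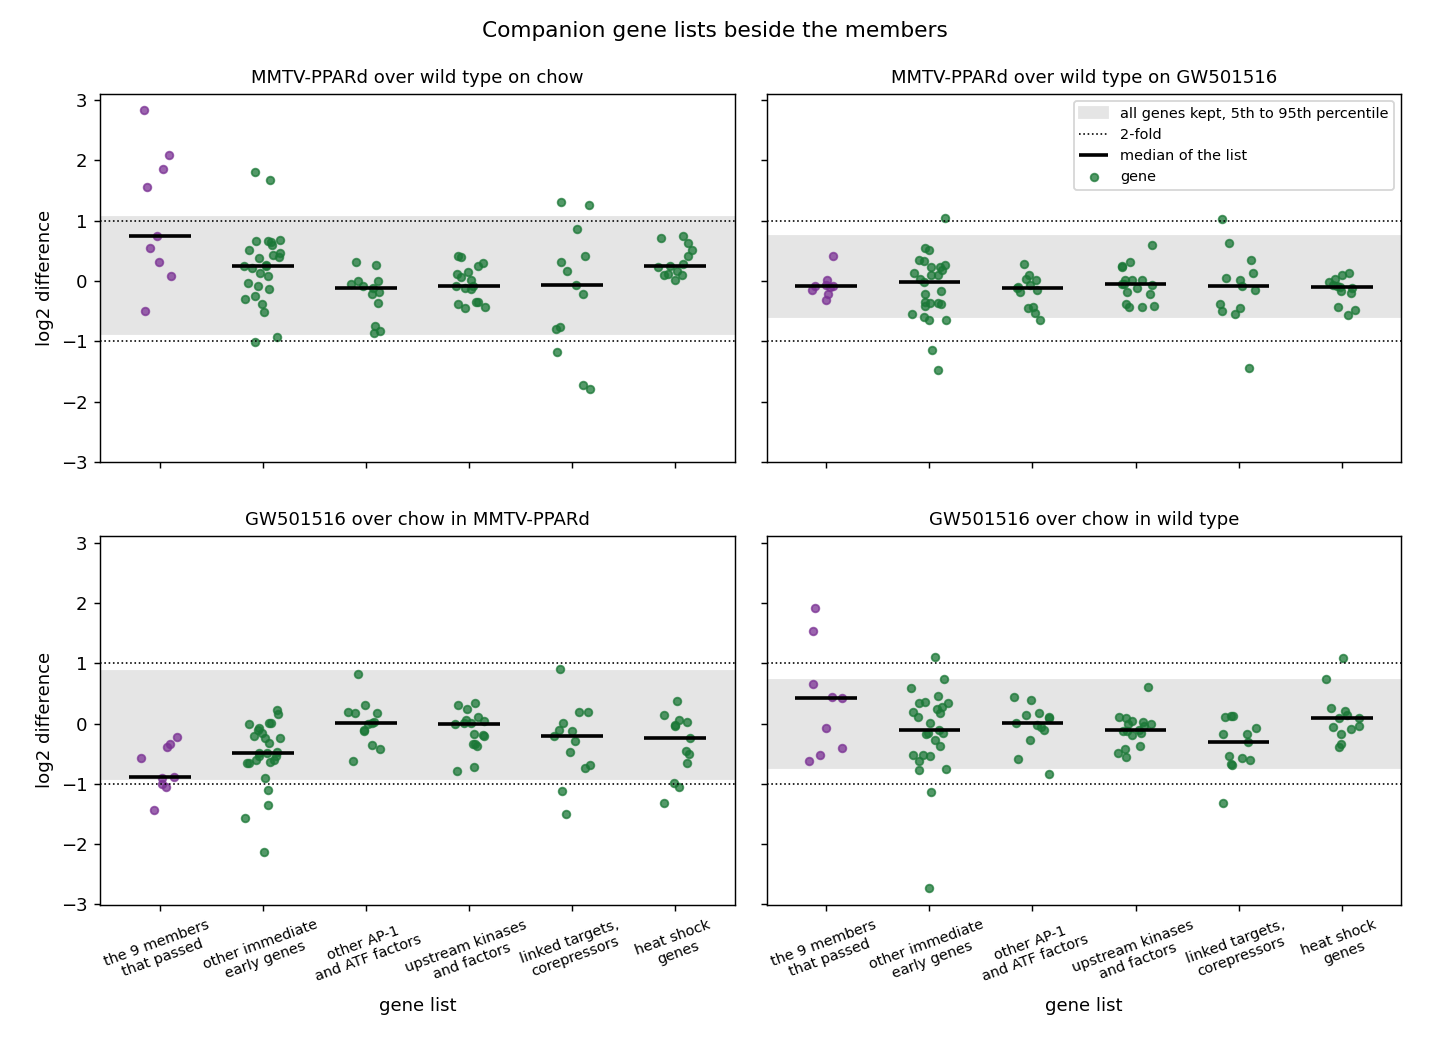
Log2 differences (vertical axis) of the members and of 5 gene lists (horizontal axis) in 4 comparisons of 1 array against 1 array, with 1 point per gene, a black bar at each median and a grey band for the 5th to 95th percentile of 7836 genes. The median of the members is 0.75 for genotype on chow and -0.89 for GW501516 in MMTV-PPARd mice, and that of the other immediate early genes 0.25 and -0.48.

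Of 13 other AP-1 and ATF factors that passed the filter, 0 reached 2-fold in any of the 4 comparisons of 1 factor. Between 1.19% and 5.46% of all genes did so in each direction, so that few of 13 genes would be called at those shares. The medians of the list lay between -0.12 and 0.0087, and 1 of the 13 was highest on the MMTV-PPARd chow array, against 33.6% of all genes. Batf, a lymphocyte AP-1 factor, reached 2-fold only between MMTV-PPARd mice on GW501516 (92.3) and wild-type mice on chow (238.6), and Batf3 and the small MAF genes Mafk and Maff followed it in size of difference. The filter fixed some of these directions. Batf passed on the chow arrays alone, Batf3 on the wild-type chow array alone and Maff on the wild-type GW501516 array alone. Mafk was 1.77-fold lower in MMTV-PPARd mice than in wild-type mice on chow. The kinases and factors upstream of immediate early genes had 0 of 17 at 2-fold in the same comparisons, a count that is likewise near those shares, and medians between -0.11 and 0. Among them Elk3, a ternary complex factor, read 366.0, 628.3, 494.6 and 567.3 in the order used above, and Nras 571.8, 945.2, 771.1 and 795.5. Their dimmer probe sets disagreed. On the MMTV-PPARd chow array one Nras set was highest (695.1) and another lowest (223.8). One Elk3 set was highest on that array (112.7) and another in wild-type mice on chow (227.7). Mapk8 and Map3k1 each differed by at most 1.51-fold in these comparisons.

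Genes known as targets or corepressors of EGR and AP-1 factors went both ways. On chow 2 of 13 were at least 2-fold higher in MMTV-PPARd mice (5.46% of all genes) and 3 at least 2-fold lower (3.71%), with a median of -0.065. On GW501516, without the MMTV-PPARd chow array, 1 was higher (2.82%) and 1 lower (1.19%), with a median of -0.089. Mmp3, a stromelysin with AP-1 sites in its promoter, read 412.9, 1170, 439.2 and 641.1, again highest on the MMTV-PPARd chow array. Timp1, a metalloprotease inhibitor, was 3.47-fold lower in MMTV-PPARd mice on chow and 2.71-fold lower on GW501516. Plau, the urokinase, was lowest on the MMTV-PPARd chow array (111.8 against 208.8 to 367.6 on the others), and the chemokine Ccl2 was highest in wild-type mice on chow (213.6 against 58.2 to 94.0). Ccl2 passed the filter through that array alone, which fixed its place as highest and its direction in the count on chow.

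Heat shock genes, which respond to stress and to handling of tissue, were all above 0 for genotype on chow on their brightest probe sets. These were 13 of 13 against 51.8% of all genes, with a median of 0.24. At 2-fold there were 0, against 5.46% of all genes higher and 3.71% lower. Dimmer sets of Cryab (501.1 against 578.9), Dnajb1 (421.6 against 483.4) and Hspa8 (97.4 against 112.2) were lower in MMTV-PPARd mice. All other dimmer sets above the floor were higher. For genotype on GW501516, where the MMTV-PPARd chow array is not used, 3 were above 0 and 10 below, with a median of -0.098, while 50.2% of all genes were above 0. Of the 13 genes 8 were highest on the MMTV-PPARd chow array, against 33.6% of all genes. Hspa1b read 1785, 3717, 2401 and 2262 in the order used above, Hspa1a 261.3, 652.9, 386.2 and 489.1, and Hsph1 801.8, 1590, 916.5 and 945.5. Hspa1a and Hspa1b are near-identical copies whose probe sets may share transcripts. With GW501516 in MMTV-PPARd mice these 2 of 13 were at least 2-fold lower (4.07% of all genes), by 2.50-fold for Hspa1a and 2.08-fold for Hspa1b. None was at least 2-fold higher (3.99%). Cryab, a small heat shock protein abundant in muscle, was instead 2.13-fold higher on GW501516 in wild-type mice. It was 1 of 13 genes at least 2-fold higher there (3.18% of all genes), with 0 lower (3.25%). Its dimmer probe set read 1746, 501.1, 2472 and 578.9 in the order used above, so it was higher on GW501516 in both genotypes. Whether the heat shock values and the members' values have a common source was not tested.

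Likeness to Fos was measured as the root mean square distance between log2 profiles over the 4 arrays, each centred on its own mean, for 7835 other genes. The 5 nearest genes outside the members were Gpnmb (distance 0.25), Mal2 (0.29), Dmd (0.30), Fbxo32 (0.30) and Gm16136 (0.35). Gpnmb encodes a glycoprotein of macrophages and other cells, Mal2 a protein of transcytosis in epithelia, and Dmd and Fbxo32 encode dystrophin and the muscle ubiquitin ligase atrogin-1. Fbxo32 read 722.6, 1190, 795.4 and 299.8 in the order used above. Among the members, Nr4a1 was second of all genes (0.28), Dusp1 was 41st (0.56), Egr1 61st (0.59) and Atf3 319th (0.77). Ier2, Junb and Egr2 ranked 4271st, 4571st and 6902nd. The distances rest on 4 arrays and describe a shared shape only.

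**Figure D4:**
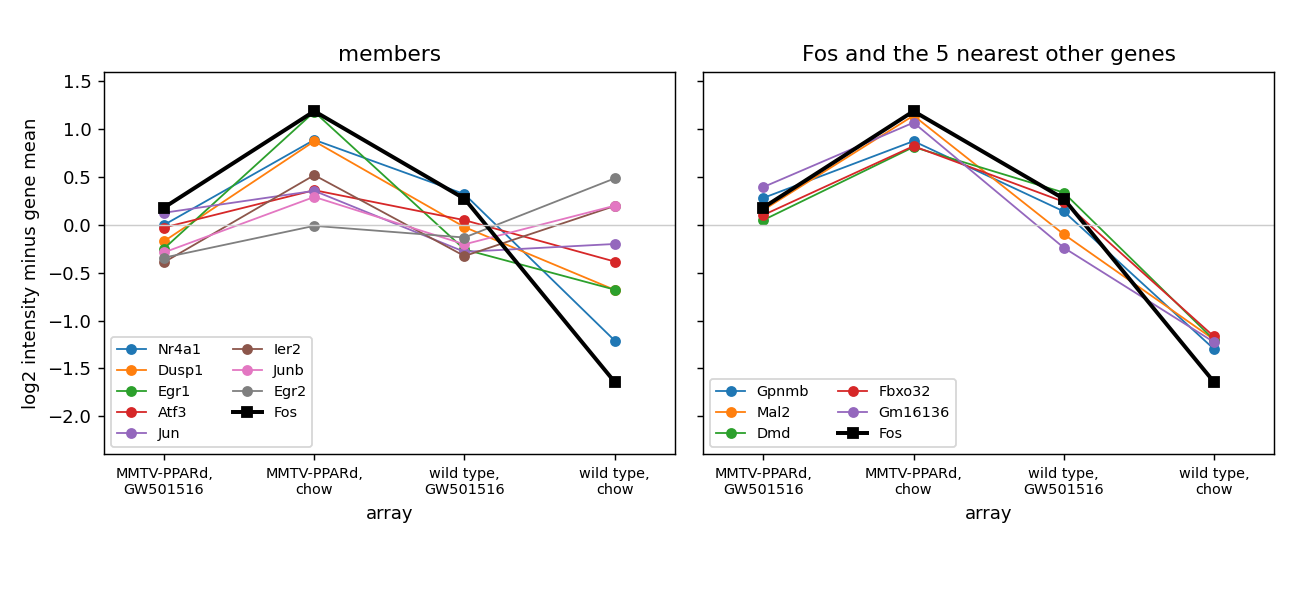
Log2 intensity minus the gene's mean over the 4 arrays (vertical axis) for the members that passed the filter (left) and for Fos with the 5 nearest other genes (right). Arrays run along the horizontal axis and lines join the points of a gene only to guide the eye. Fos, Nr4a1, Dusp1 and Egr1 peak on the MMTV-PPARd chow array, whereas Egr2 is highest in wild-type mice on chow.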

How the data were processed

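The authors deposited 1 linear intensity per probe set and array, and pooled RNA of 5 mice into biotin-labelled cRNA, per the labels' protocols. Which software summarised and scaled the probes is not given in the sources used here. Deposited intensities were never negative and had a trimmed mean of 500.2 on all 4 arrays. Probe sets were named through the platform's table. Of 20393 with 1 symbol, 20364 were updated by gene ID in RefSeq, while 691 had several symbols and named no gene, and 1606 were not listed. Here the probe set with the highest mean was kept per gene, values under 20.5 (25th percentile) were set to that floor, log2 was taken, and genes reaching 139 (the median) on at least 1 array were counted. Differences were computed in Python 3.11.15 with pandas 2.3.3, and the steps were tested on simulated data.

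The members and lists were chosen with earlier results of these data known. Named were all members, up to 4 genes per related list with the largest difference, the 5 genes nearest to Fos, and array and tissue checks. Ehf, Krt8, Krt19, Krt14, Lalba, Bpifa2 and Adipoq were picked from their marker lists after their values were seen. Cd3e, Cd5, Cd8a, Cd8b1, Muc1 and Wap were named for how they passed the filter. Promoter windows and coordinates are those of RefSeq's GRCm38.p6 table. The alternatives changed the scaling (one median or quantile), the floor (40th percentile or none), the filter (none or the 75th percentile) and the probe set rule (the mean, or none that can share transcripts). The number of arrays, 1 per group, limits the precision.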

Additional observations from a re-analysis of the deposited data

Results flagged for a closer look

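For 4 members the GW501516 effect had opposite signs in the 2 genotypes. Its log2 difference, MMTV-PPARd minus wild type, was -2.92 for Fos, -2.42 for Nr4a1, -1.85 for Egr1 and -1.70 for Dusp1. Fos, Nr4a1 and Dusp1 also had transgene effects of opposite sign on GW501516 and on chow, as had 6.25% of all genes at that size. These effects differ by the same -2.92, -2.42 and -1.70, since both are one difference over the same 4 arrays. On GW501516 the effects were small, at 1.07-fold, 1.25-fold and 1.11-fold lower in MMTV-PPARd mice. All 3 lay within the SD between probe sets of a gene (0.41 on the log2 scale). The differences were not tested, because each group was 1 array. All rest on the MMTV-PPARd chow array, where the middle Gapdh probe set read 2986 against 7171 to 10826 on the others.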

How the results depend on the processing

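Of 156 values of the members' counts and medians under alternatives, 144 stayed within 1.5 times the count, or within the SD between probe sets of a gene for a median (0.41 to 0.59 on the log2 scale). With arrays shifted to one median, 1 member instead of 3 was at least 2-fold lower on GW501516 in MMTV-PPARd mice. Without a filter, Fosb entered and 1 member was at least 2-fold lower for genotype on GW501516. With the filter at the 75th percentile, which left 7 members, the median was 1.55 for genotype on chow and -1.70 for the difference of GW501516 effects. Without the MMTV-PPARd chow array, neither the genotype comparison on chow nor the GW501516 comparison in MMTV-PPARd mice can be made. The comparisons put in their place, counted among the alternatives above, ask other questions. MMTV-PPARd mice on GW501516 against wild type on chow differ in genotype and agonist together. There 2 members were at least 2-fold higher, 0 lower, and the median was 0.36. MMTV-PPARd mice on GW501516 against wild type on GW501516 differ in genotype and not in agonist. There 0 members were higher, 0 lower, and the median was -0.084. Of 480 single values of members, 473 stayed within that SD and 7, all of Fosb under another floor, did not. The cause of these shifts was not tested, beyond the fewer genes that the filters give and the other groups compared without the left-out array. Under the 8 alternatives of processing no called value changed its sign, and small values of Jun (GW501516 in wild type), Egr1 (genotype on GW501516) and Egr2 (difference of effects) did. This does not cover the comparisons without the MMTV-PPARd chow array. No paired analysis was possible because each group was 1 array of 1 pool. Leaving out a replicate was not possible for the same reason. With 1 array per group, no value has a replicate spread, and signal near the floor limits Fosb.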
